A study of Mus musculus with 6 samples.

Results

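Among medullary thymic epithelial cells (mTEC), some cells take on gene programmes of peripheral epithelia and are called mimetic cells. One such group resembles the absorptive enterocyte of the gut and the hepatocyte of the liver. Hnf4a and Hnf4g encode related nuclear receptors that bind DNA as dimers and drive genes of lipid transport, absorption and metabolism in gut and liver. Hnf4g is also known as a lineage factor of the enterocyte and hepatocyte mimetic mTEC. Cdx2 encodes the homeobox factor that sets intestinal identity. Apoa1, Apoa4 and Apob encode protein components of lipoprotein particles, Alb encodes serum albumin, and Fabp1 and Fabp2 encode the liver and intestinal fatty acid binding proteins.

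These 9 genes were listed by name, with earlier results of these data known. They were looked up among the 52636 genes of the count table, and all 9 were present and passed the filter on low counts. They were compared between tuft-like mTEC (3 libraries) and non-tuft-like mTEC (3 libraries), both sorted from the thymus of 6-week-old C57BL/6 mice. Both populations bound the lectin UEA, had low MHCII and lacked Sca1 and CD63. For CD80 the sample labels give negative and the study's description of the population gives low. The study's gating started from CD45- EpCAM1+ cells. The tuft-like cells carried CD117 and CD66a and the non-tuft-like cells carried neither. None of the 9 genes encodes a marker of the sort. How many mice gave each library, and whether the libraries came from separate animals, is not given in the sources used here, so p-values measure the spread between these libraries.

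Libraries held 20097617 to 48369825 reads on genes. All 8 tuft cell genes checked were called higher in tuft-like mTEC, and their summed level was 9516 to 15542 CPM in tuft-like and 571.5 to 736.1 CPM in non-tuft-like libraries. CPM are counts scaled to library size after normalisation between libraries (TMM). Reads that the counting assigned to no gene are called reads on no gene here. Whether they include reads within introns is not given in the sources used here. The share of reads on no gene was 19.7% of all reads in tuft-like replicate 3 and 61.6% in tuft-like replicate 1. The other 4 libraries lay between these values. Of 7 thymocyte genes, 6 were tested and 0 were called by edgeR (0 also at an unadjusted p under 0.05, and 0 by DESeq2), with summed levels of 17.7 to 30.3 CPM in non-tuft-like and 8.51 to 33.9 CPM in tuft-like libraries.

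Of the 9 genes, Apoa4 alone was called, and it was lower in tuft-like mTEC (false discovery rate, FDR, under 0.05 in edgeR's quasi-likelihood test), and 0 were called higher. Over all 32496 genes tested, 0.951% were called lower and 1.16% higher in tuft-like mTEC (309 and 378 genes). Without tuft-like replicate 3 this balance turned, to 612 lower and 310 higher. At an unadjusted p under 0.05, Apoa4 and Apob were lower and 0 of the 9 were higher, against 4.59% and 4.38% of all tested genes, and DESeq2 also called 0 of the 9 higher. Libraries of the 2 populations lay fully apart for Hnf4a, Apoa4 and Apob, all 3 with the lower values in tuft-like mTEC, a pattern that 8.85% of all tested genes shared, and for 0 of the 9 did they lie apart the other way (7.18% of all tested genes). The fitted level was lower in tuft-like mTEC for 8 of the 9, the exception being Hnf4g, where 49% of all tested genes had a lower mean in tuft-like mTEC. The median log2 ratio of the 9 (tuft-like over non-tuft-like) was -1.10, against 0.02 over all tested genes. In bulk libraries, fewer cells of a type and less RNA per cell cannot be told apart.

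**Figure D1:**
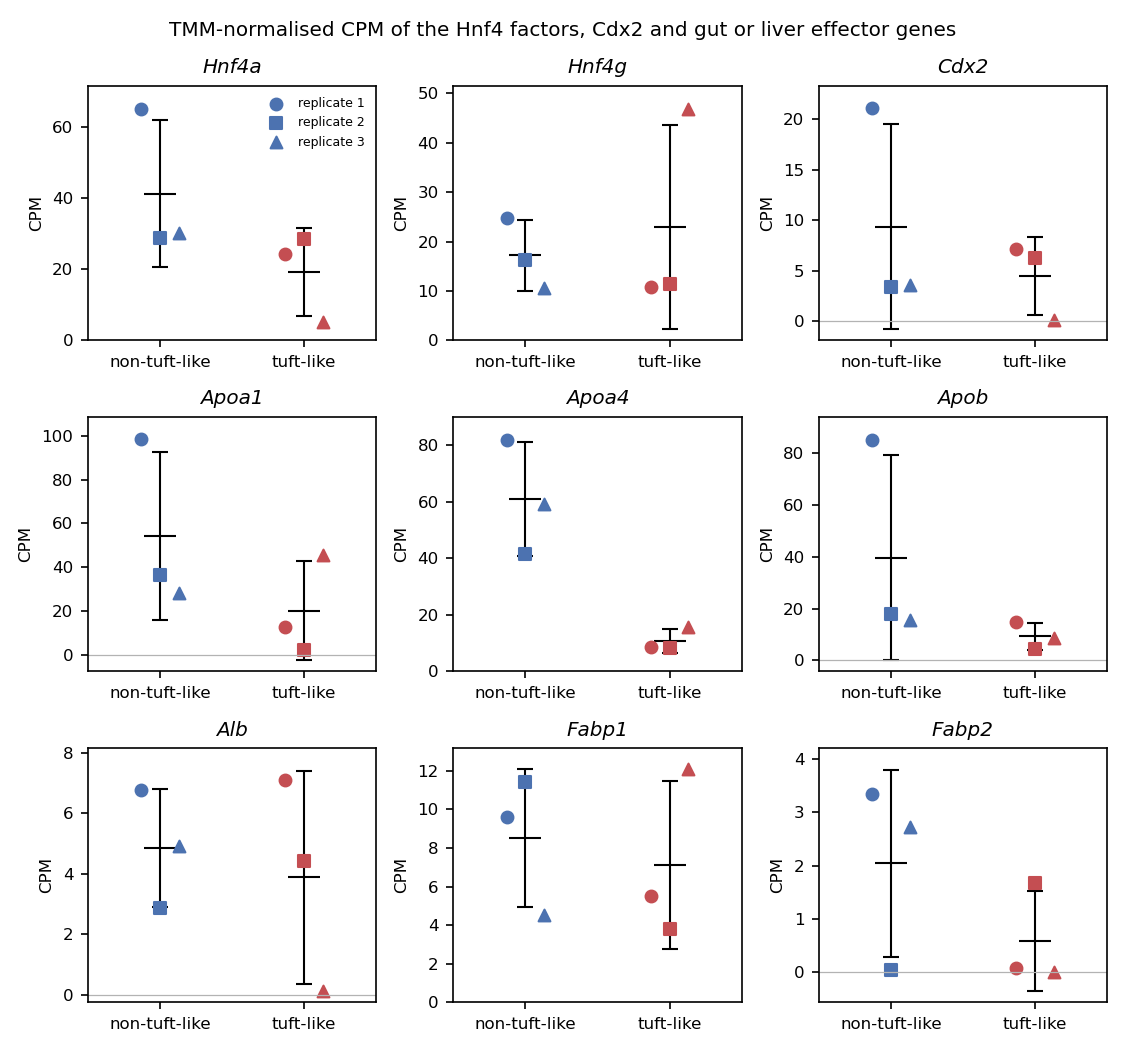
Level of each gene in CPM (vertical axis, TMM-normalised) in non-tuft-like (blue) and tuft-like (red) libraries, with 1 point per library, the symbol giving the replicate number, and the black bar and whiskers giving mean ± SD (n = 3). For Apoa4 the tuft-like libraries sit between 8.21 and 15.6 CPM, all below the non-tuft-like libraries at 41.6 to 81.9 CPM, while most other genes overlap or have 1 library far from the rest.

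Apoa4 (ENSMUSG00000032080) encodes an apolipoprotein of the particles in which enterocytes export dietary fat. It lies on chromosome 9 of mm10, from 46240696 to 46243459 on the plus strand. Its level was 81.9, 41.6 and 59.2 CPM in replicates 1, 2 and 3 of non-tuft-like mTEC, and 8.60, 8.21 and 15.6 CPM in those of tuft-like mTEC. Every tuft-like library was below every non-tuft-like library. The means were 60.9 ± 20.2 and 10.8 ± 4.16 CPM (SD, n = 3 each), a 5.63-fold lower level in tuft-like mTEC (log2 ratio -2.49, approximate standard error, SE, 0.41, FDR 0.0113 from edgeR). The call was lost without tuft-like replicate 2 (log2 ratio -2.33, edgeR FDR 0.0539) and without both libraries with the largest share of reads on no gene (-2.41, edgeR FDR 0.117). Of its 1815 exonic bp, 1266 lie opposite exons of the genes Gm47528 and Gm10680 on the other strand, and whether the counting used strand is not given in the sources used here. Gm47528 had at most 79 counts in any library and Gm10680 had 0 in all 6, whereas Apoa4 had 208 to 2596 counts.

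Apoa1 (ENSMUSG00000032083), the main protein of high-density lipoprotein, lies upstream of Apoa4 on chromosome 9 (46228580 to 46230466). It stood at 98.4, 36.4 and 28.4 CPM in the non-tuft-like replicates and at 12.8, 2.05 and 45.6 CPM in the tuft-like replicates. Tuft-like replicate 3 exceeded 2 of the 3 non-tuft-like libraries, so the populations overlapped. The log2 ratio was -1.43 (SE 0.87, edgeR FDR 0.887). Leaving out tuft-like replicate 3 gave -2.92 and leaving out non-tuft-like replicate 1 gave -0.72, and neither passed the threshold (edgeR FDR 0.172 and 1). The ratio of Apoa1 to Apoa4 per exon length varied within each population, at 1.76, 1.29 and 0.703 in non-tuft-like and 2.19, 0.366 and 4.29 in tuft-like replicates 1, 2 and 3. With mean transcript length the ratio in non-tuft-like replicate 3 was 1.06.

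Apob (ENSMUSG00000020609, chromosome 12, 7977648 to 8016835) encodes the scaffold protein of chylomicrons and very-low-density lipoprotein. Its level was 85.4, 17.9 and 15.7 CPM in the non-tuft-like replicates and 14.8, 4.44 and 8.67 CPM in the tuft-like replicates. The populations did not overlap, but the gap between the lowest non-tuft-like and the highest tuft-like library was small beside the distance to non-tuft-like replicate 1. The log2 ratio of -2.09 (SE 0.71) missed the threshold (edgeR FDR 0.271) and was -0.86 without non-tuft-like replicate 1 (edgeR FDR 1). DESeq2 called Apob (FDR 0.0378), as did edgeR without a filter on low counts (FDR 0.0379).

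The sequences just upstream of these 3 apolipoprotein genes are shown because HNF4 proteins are known regulators of apolipoprotein genes in gut and liver. Each is the part of the RefSeq promoter window (GRCm38.p6, plus strand, 5′ to 3′) that lies before the first GENCODE start. Capitals mark the letters CAAAGNNCA on either strand, a short form of the HNF4 site. A sequence without capitals can still hold HNF4 sites of other letters, which were not searched.
Apoa4, chr9:46240594-46240695: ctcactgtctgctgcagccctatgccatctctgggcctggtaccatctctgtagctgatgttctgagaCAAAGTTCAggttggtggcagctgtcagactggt
Apoa1, chr9:46228380-46228579: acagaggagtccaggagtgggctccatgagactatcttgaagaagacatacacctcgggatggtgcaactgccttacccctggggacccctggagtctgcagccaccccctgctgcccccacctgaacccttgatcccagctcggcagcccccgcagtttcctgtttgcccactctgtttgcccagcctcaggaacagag
Apob, chr12:7977427-7977647: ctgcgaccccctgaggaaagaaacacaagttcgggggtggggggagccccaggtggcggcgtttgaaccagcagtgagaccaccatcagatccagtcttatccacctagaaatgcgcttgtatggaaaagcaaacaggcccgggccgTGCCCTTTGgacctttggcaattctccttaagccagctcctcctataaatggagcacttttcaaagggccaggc

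The RefSeq table holds promoters of 8 of the 9 genes, all but Hnf4g. In the 250 bases before the RefSeq start, the letters CAAAGNNCA occurred in Apoa4, Apob and Fabp2, once each, and in 5.49% of all 32851 promoters. In Apoa4 they stood on the plus strand (chr9:46240662-46240670) and in Apob on the minus strand (chr12:7977574-7977582). TTTATNG, a short form of the CDX site, occurred in Fabp1 (3 times), Fabp2 and Apob, and in 9.81% of all promoters. No match overlapped another. Such letters describe the sequence and were not tested as binding sites.

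Hnf4a (ENSMUSG00000017950, chromosome 2, 163506808 to 163572910) stood at 65.1, 28.7 and 30.0 CPM in replicates 1, 2 and 3 of non-tuft-like mTEC. In the tuft-like replicates it was 24.3, 28.4 and 5.28 CPM. All tuft-like values were below the non-tuft-like ones, but the second replicates of both populations were almost equal. The log2 ratio of -1.10 (SE 0.59) did not pass the threshold (edgeR FDR 0.770). Leaving out non-tuft-like replicate 1 gave -0.61 and leaving out tuft-like replicate 3 gave -0.69.

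Hnf4g (ENSMUSG00000017688, chromosome 3, 3508030 to 3658052) had 24.9, 16.2 and 10.6 CPM in the non-tuft-like and 10.7, 11.4 and 46.8 CPM in the tuft-like replicates. The highest value of all 6 libraries was thus in tuft-like replicate 3, where Hnf4a was lowest. The log2 ratio was 0.42 (SE 0.63, edgeR FDR 1), and without tuft-like replicate 3 it was -0.68 (edgeR FDR 0.808). Per exon length, Hnf4a stood at 1.43, 0.963 and 1.54 times the level of Hnf4g in the non-tuft-like replicates and at 1.23 and 1.36 times in tuft-like replicates 1 and 2. In tuft-like replicate 3 it stood at 0.0614 times, lower than in any other library. With mean transcript length in place of exon length, the ratios were 2.84, 1.92 and 3.06 in the non-tuft-like replicates, 2.45 in tuft-like replicate 1 and 0.122 in tuft-like replicate 3, so which paralogue was higher in non-tuft-like replicate 2 depended on the length used. The gene count sums over all starts of Hnf4a.

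Cdx2 (ENSMUSG00000029646, chromosome 5, 147300805 to 147307270, minus strand) stood at 21.1, 3.38 and 3.56 CPM in the non-tuft-like and 7.15, 6.26 and 0.0552 CPM in the tuft-like replicates. The last value rests on 2 counts, under the limit of 3 counts that a count of 0 allows (0.0828 CPM in that library). The log2 ratio was -1.06 (SE 1.32, edgeR FDR 1) and turned to 0.37 without non-tuft-like replicate 1. Its relative Cdx1, an intestinal homeobox factor outside the 9 genes, was more abundant, at 46.6, 73.7 and 89.4 CPM in the non-tuft-like and 16.5, 158.5 and 218.7 CPM in the tuft-like replicates. Cdx1 overlapped between the populations (log2 ratio 0.91, SE 0.68, edgeR FDR 1).

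Alb (ENSMUSG00000029368, chromosome 5, 90460897 to 90476602) stood at 6.78, 2.87 and 4.93 CPM in the non-tuft-like and 7.11, 4.41 and 0.110 CPM in the tuft-like replicates. Tuft-like replicate 1 was the highest of all and tuft-like replicate 3 the lowest, with 4 counts. The log2 ratio was -0.33 (SE 1.25, edgeR FDR 1). Of the related genes on the same chromosome, 0 passed the threshold in edgeR. Afp, the fetal counterpart of albumin, had at most 9.22 CPM in the tuft-like and 7.72 CPM in the non-tuft-like libraries (log2 ratio 0.05). Afm, the vitamin E binding protein of the same family, was higher in every tuft-like library (28.8, 27.1 and 46.3 CPM) than in any non-tuft-like one (18.0, 4.36 and 6.99 CPM; log2 ratio 1.80, SE 0.57, edgeR FDR 0.208). Gc, the vitamin D binding protein, stood at 83.1, 178.9 and 72.7 CPM in the non-tuft-like and 7.85, 15.6 and 62.5 CPM in the tuft-like replicates, all below the non-tuft-like ones (edgeR FDR 0.284).

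Fabp1 (ENSMUSG00000054422, chromosome 6, 71199827 to 71205023) stood at 9.62, 11.4 and 4.51 CPM in the non-tuft-like replicates and at 3.80 to 12.1 CPM in the tuft-like ones, with replicate 3 the highest. The populations overlapped over nearly their whole range (log2 ratio -0.26, SE 0.77, edgeR FDR 1). Fabp2 (ENSMUSG00000023057, chromosome 3, 122895072 to 122899506) was the lowest of the 9 in CPM, at 3.35, 0.0426 and 2.73 in the non-tuft-like and 0.0827, 1.67 and 0 in the tuft-like replicates. Its count was at most 2 in non-tuft-like replicate 2, the deepest library, and in tuft-like replicates 1 and 3, while the shallower non-tuft-like replicates 1 and 3 had 106 and 86. No change of Fabp2 could be told from this spread (log2 ratio -1.80, SE 2.14, edgeR FDR 1, and -5.57 without tuft-like replicate 2). With 3 libraries against 3, the smallest p of a two-sided exact permutation test is 0.10, and Hnf4a, Apoa4 and Apob reached it.

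**Figure D2:**
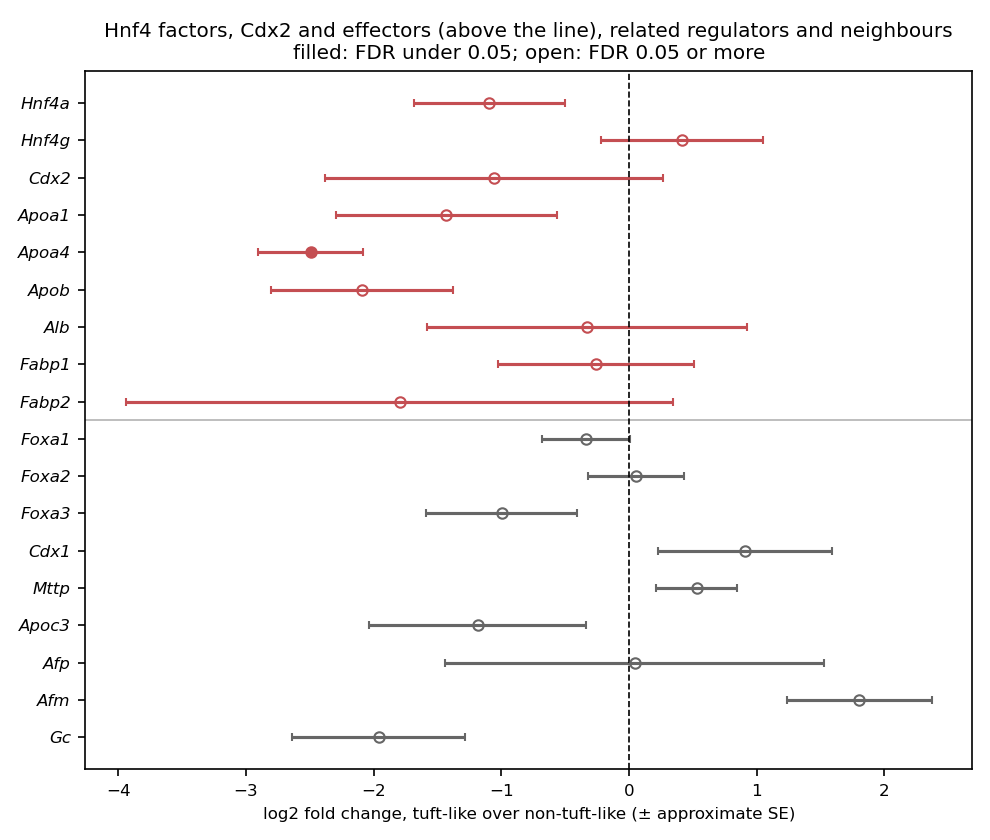
Log2 ratio of tuft-like over non-tuft-like mTEC (horizontal axis, edgeR) with approximate SEs (standard errors) as whiskers, for the 9 genes (red, above the line) and for related regulators, lipid genes and chromosomal neighbours (grey). Apoa4 at -2.49 is the 1 filled point, with an FDR under 0.05.

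Levels can be compared between genes only per exon length. On that scale (CPM per kb of exon, mean ± SD, n = 3) Apoa1 was at 44.0 ± 31.0 and Apoa4 at 33.6 ± 11.1 in non-tuft-like mTEC, ahead of Fabp1 at 15.4 ± 6.46. Hnf4a at 8.54 ± 4.27, Hnf4g at 6.55 ± 2.72 and Cdx2 at a mean of 4.14 followed, and their SDs overlapped. Apob at 2.84 ± 2.84, Fabp2 at 2.11 ± 1.82 and Alb at 2.08 ± 0.835 were the lowest. This order depended on the length used. With mean transcript length in its place, Hnf4a was at 19.6 ± 9.83, ahead of Fabp1 at 15.4, and Alb at 5.41 ± 2.18 and Apob at 5.18 ± 5.18 were ahead of Cdx2 at 4.14. In tuft-like mTEC Apoa1 (16.3 ± 18.4), Fabp1 (12.9 ± 7.90), Hnf4g (8.74 ± 7.85) and Apoa4 (5.95 ± 2.29) lay within each other's spread.

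The 1134 olfactory receptor genes, which are nasal chemoreceptors, served as a measure of reads on exons of genes that epithelium outside the nose mostly does not use. Their 99th percentile was 1.24 to 2.75 CPM per kb over the 6 libraries. Of the 54 values of the 9 genes, 36 lay above the percentile of their library. Hnf4g, Apoa4 and Fabp1 did so in all 6 libraries, and Hnf4a and Apoa1 in 5. Cdx2 did so in 3 libraries, Alb and Fabp2 in 2 and Apob in 1, non-tuft-like replicate 1. With mean transcript length Alb did so in 5 libraries, Cdx2 and Fabp2 in 1 and Hnf4a in 6, and the counts of the other genes were the same. Cdx2, Alb and Fabp2 were lowest or at 0 in tuft-like replicate 3, whose percentile (1.24) and share of reads on no gene (19.7%) were also the lowest. The part of such reads in their values was not tested.

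**Figure D3:**
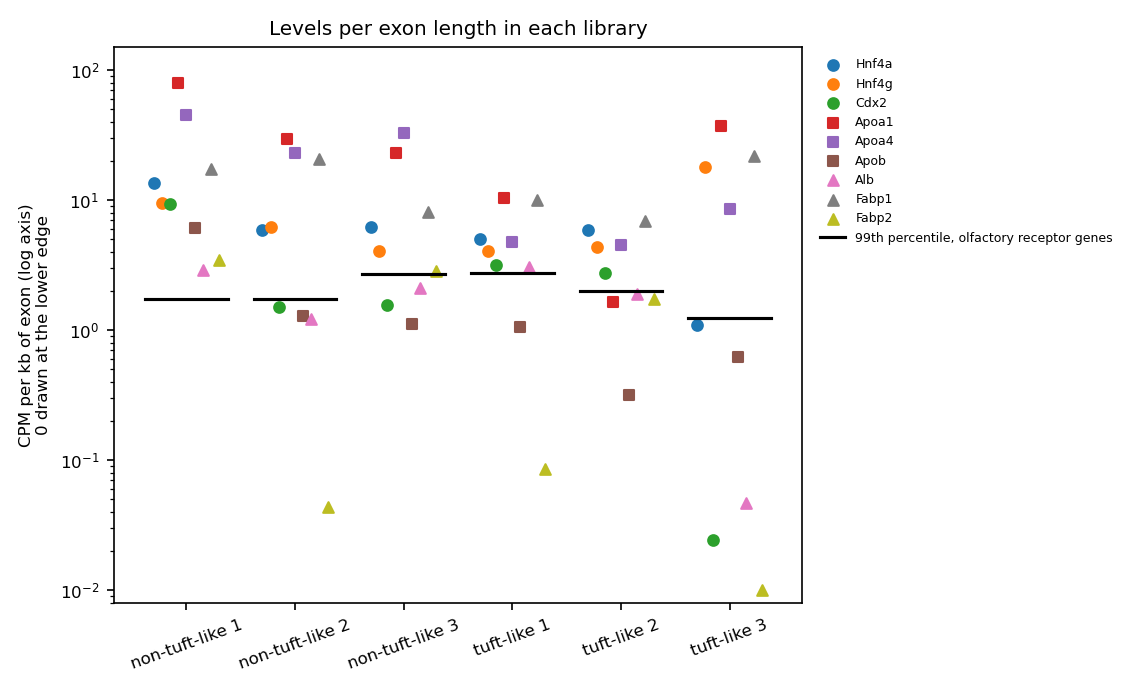
Level of each of the 9 genes per kb of exon (vertical log axis, CPM per kb, 0 drawn at the lower edge) in each of the 6 libraries, with the black line marking the value that 99 of 100 olfactory receptor genes of that library stay under. Hnf4g, Apoa4 and Fabp1 lie above the line in every library, and Cdx2, Alb and Fabp2 are far below it in tuft-like replicate 3.

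Within the non-tuft-like population replicate 1 had the highest level of the 3 libraries for 8 of the 9, all but Fabp1, whereas this library was the highest for 30.9% of all tested genes and for 43.9% of those with a mean of at least 10 CPM. Their summed level was 396.4 CPM in non-tuft-like replicate 1 against 158.5 and 159.7 CPM in replicates 2 and 3. In the tuft-like libraries the sums were 91.1, 70.6 and 134.2 CPM, and the highest library was replicate 1 for 3 genes, replicate 2 for 2 and replicate 3 for 4. No test was made of these shares, since the 9 genes are not replicates. Non-tuft-like replicate 1 was the highest for 15 of 27 tested hepatocyte genes, 11 of 24 enterocyte genes and 5 of 17 transcription factors of the lists below.

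Other genes of the gut and liver programmes were taken from 4 lists. Beside the counts of called genes below, edgeR called 0.951% of all tested genes lower and 1.16% higher in tuft-like mTEC. Of 18 transcription factors 17 were tested, 0 were called (0 also at an unadjusted p under 0.05, and 0 by DESeq2), and the median log2 ratio was -0.11. The forkhead factors Foxa1 (log2 ratio -0.34), Foxa2 (0.06) and Foxa3 (means of 22.7 and 11.4 CPM) were all measured in every library and overlapped between the populations. Prox1, a homeobox factor of liver and lymphatic endothelium, was among the most abundant of the list at 76.0 ± 15.8 and 112.7 ± 20.7 CPM (SD, n = 3), with an edgeR FDR of 0.672.

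Of 21 genes of lipoprotein and fatty acid handling, 19 were tested, 2 were called lower and 0 higher, and the median log2 ratio was -0.55. Both called genes are used well beyond gut and liver. Fabp5, the epidermal fatty acid binding protein, stood at 372.6, 447.7 and 436.2 CPM in the non-tuft-like and 59.8, 66.5 and 148.5 CPM in the tuft-like replicates (log2 ratio -2.19, SE 0.39, edgeR FDR 0.0155). Keratinocyte genes moved with it, with 3 of 7 called lower and a summed level of 3038 to 4938 CPM in non-tuft-like against 120.3 to 1268 CPM in tuft-like libraries, and their part in the result was not tested. Apoe, a component of lipoproteins, stood at 231.3, 404.0 and 337.3 CPM against 78.4, 76.6 and 153.1 CPM (log2 ratio -1.66, SE 0.37, edgeR FDR 0.0491). Of 7 macrophage and dendritic cell genes 1 (Cd68) was called lower, the summed level was 217.5 to 348.8 CPM in non-tuft-like and 129.8 to 188.3 CPM in tuft-like libraries, and C1qa was at 0 in 1 library of each population. The part of such cells in the result was not tested. Fabp5 was no longer called without non-tuft-like replicate 2 (edgeR FDR 0.0554) or tuft-like replicate 2 (0.102), with log2 ratios that stayed near the -2.19 of all libraries (-2.14 in the first case). Apoe lost it without non-tuft-like replicate 2 (edgeR FDR 0.232) or 3 (0.0817), without tuft-like replicate 1 (0.105) or 2 (0.286), and with the replicate number as a block (0.0547). Its log2 ratio was between -1.70 and -1.46 in these 5 settings.

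Mttp, the transfer protein that loads lipid onto Apob, was higher in every tuft-like library (43.4, 35.8 and 40.9 CPM) than in any non-tuft-like one (32.8, 26.7 and 23.6 CPM), but the difference did not pass the threshold (log2 ratio 0.53, SE 0.32, edgeR FDR 0.877). Its exons share 589 bp with genes on the other strand. Dgat2, an enzyme of triglyceride synthesis, had a log2 ratio of -1.81 (edgeR FDR 0.140), from 348.5 ± 32.4 to 99.3 ± 81.0 CPM (SD, n = 3), and Dgat1 one of -0.18. Apoc3, which lies between Apoa1 and Apoa4 on the minus strand (46232933 to 46235636), stood at 17.8, 6.51 and 11.3 CPM in the non-tuft-like and 3.27, 1.64 and 10.7 CPM in the tuft-like replicates (log2 ratio -1.19, SE 0.85, edgeR FDR 1). Apoa5, the last gene of the cluster, did not pass the filter and had at most 2.07 CPM in any library. Of the paralogues of Fabp1 and Fabp2, Fabp4 had a log2 ratio of -0.51 from a level of 62.3 ± 12.8 CPM (SD, n = 3), and Fabp3, Fabp6 and Fabp7 had means under 5 CPM in both populations and were not called.

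All 24 enterocyte genes of brush border and absorption were tested, 1 was called lower and 0 higher, and the median log2 ratio was -0.83. The called gene was Slc5a1, the sodium and glucose cotransporter of the gut. It stood at 94.9, 123.3 and 140.8 CPM in the non-tuft-like and 8.76, 24.1 and 19.5 CPM in the tuft-like replicates (log2 ratio -2.78, SE 0.40, edgeR FDR 0.00503). Reg3g, an antimicrobial lectin, was the most abundant, with equal means but a wide spread (1666 ± 686 and 1646 ± 1576 CPM, SD, n = 3). Vil1, a brush border actin binding protein that tuft cells also use, had a log2 ratio of -0.33, and Lgals4, an intestinal galectin, one of -0.68 (edgeR FDR 1 and 0.572).

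Of 29 hepatocyte genes 27 were tested, 1 was called lower and 0 higher, and the median log2 ratio was -1.03. The called gene was Hp, the haemoglobin-binding plasma protein haptoglobin, at 70.9, 78.4 and 58.0 CPM in the non-tuft-like and 13.5, 4.59 and 9.64 CPM in the tuft-like replicates (log2 ratio -2.90, SE 0.43, edgeR FDR 0.00612). Slc5a1 and Hp kept their calls when each library was left out in turn. Rbp4, the plasma carrier of retinol, had a log2 ratio of -1.25 (edgeR FDR 0.163) and Ambp, a plasma protein precursor, one of -1.03 (edgeR FDR 0.138), and for both every tuft-like library was below every non-tuft-like one. Over the enterocyte and hepatocyte lists, 7 of 24 and 8 of 27 genes had all tuft-like libraries below all non-tuft-like ones, where the share was 8.85% of all tested genes. The same held for 6 of 19 lipoprotein genes and 0 of 17 transcription factors. All tuft-like libraries lay above for 1 hepatocyte gene, 1 lipoprotein gene, 0 enterocyte genes and 0 transcription factors, against 7.18% of all tested genes. Of 7 genes of mature mTEC 4 were called lower in tuft-like mTEC, Aire among them, and 0 higher. Their summed levels were 2114 to 2679 CPM in non-tuft-like and 349.5 to 776.4 CPM in tuft-like libraries. Of 5 erythroid genes 0 were called by edgeR and 4 were called lower by DESeq2. All 5 had every tuft-like library below every non-tuft-like one and 4 had an unadjusted p under 0.05, with summed levels of 236.2 to 381.4 CPM in non-tuft-like and 88.0 to 163.9 CPM in tuft-like libraries. Of 6 microfold genes 1 was called higher and 0 lower, and of 4 B cell genes 1 higher and 0 lower. All 5 fibroblast and all 4 endothelial genes had a higher fitted level in tuft-like mTEC, and 0 were called. Summed levels of the fibroblast genes were 29.8 to 52.3 CPM in non-tuft-like and 14.8 to 99.5 CPM in tuft-like libraries. Those of the endothelial genes were 13 to 26.8 CPM and 6.02 to 185.2 CPM. Each endothelial gene was highest in tuft-like replicate 1, with Pecam1 at 106.3 CPM there and at 8.16 and 3.07 CPM in tuft-like replicates 2 and 3. The part of mature mTEC, of erythroid RNA and of these other cell types in the values of the gut and liver genes was not tested.

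**Figure D4:**
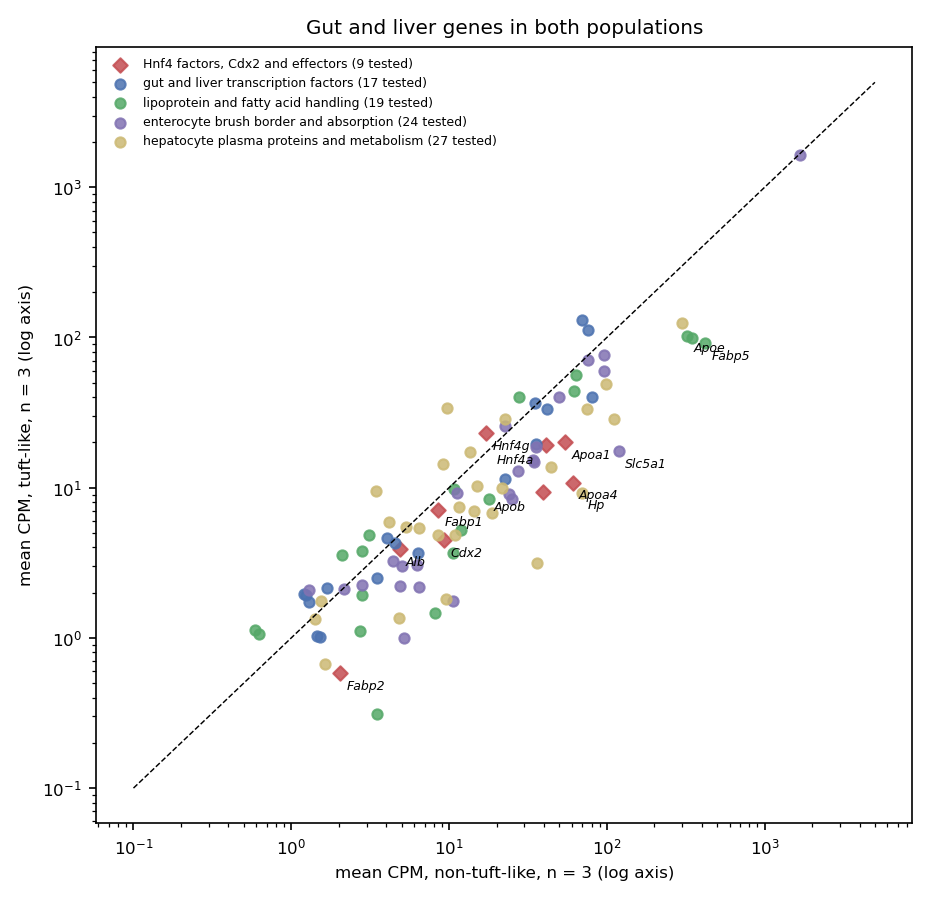
Mean CPM in non-tuft-like (horizontal log axis) and tuft-like mTEC (vertical log axis), 3 libraries each, for the tested genes of the 4 lists and for the 9 genes (red diamonds), with the dashed line marking equal levels. The 9 genes and the 4 other genes called lower (Apoe, Fabp5, Slc5a1 and Hp) are named, and of the 9 only Hnf4g lies above the line.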

How the data were processed

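Ultra-low input RNAseq of sorted mTEC (3 libraries per population) was processed by the authors with Trimmomatic 0.36, STAR 2.7.3a (mm10) and HTSeq, and deposited as whole read counts per gene without normalisation. The annotation release and strand setting are not given in the sources used here. Groups came from the sample titles. Symbols and exon lengths came from GENCODE M21 (mm10), which named 52489 of 52636 gene rows, and promoters from RefSeq (GRCm38.p6). Rows for spike-ins and for reads on no gene were left out of library sizes.

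Low genes were removed with filterByExpr. A gene needed 15 counts in total and, in at least 3 libraries, the CPM equal to 10 counts at the median library size. The kept genes were scaled by TMM and tested with edgeR 4.0.16 (quasi-likelihood F-test, Benjamini-Hochberg over all 32496 genes, threshold 0.05) in R 4.3.3. Standard errors are the absolute log2 ratio (log2 fold change) over the square root of F. The permutation test used log2(CPM + 0.5). The fit was tested on simulated counts. DESeq2 1.42.0 and limma 3.58.1 were alternatives. A count of 0 allows up to 3 counts (0.0639 to 0.124 CPM), which covers counting error only.

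The 9 genes and the lists were chosen with earlier results of these data known. Genes of the lists were named if called, if among the 3 most abundant of those not called, or if listed by name as neighbours, paralogues or regulators. Some of these are not reported here. Replicate numbers were checked for pairing, and correlations of deviations within a number were -0.117, -0.0462 and -0.290, which gave no ground for pairing.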

Additional observations from a re-analysis of the deposited data

How the results depend on the processing

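The common biological coefficient of variation between libraries was 1.10, and whether spread or depth limits the results more was not compared. The number of the 9 genes called lower was 1 and became 2 with DESeq2 or without a filter on low counts (Apob added), 0 without the 2 libraries with most reads on no gene (tuft-like 1 and non-tuft-like 3, an alternative chosen after seeing the data), and 0 to 1 with each library left out in turn. Apoa4 kept its direction in all 15 alternatives and its call in 13. The direction turned for Hnf4g without tuft-like replicate 3 (-0.68), for Cdx2 without non-tuft-like replicate 1 (0.37), for Alb without non-tuft-like replicate 1 (0.0037) or tuft-like replicate 3 (0.21), and for Fabp1 without non-tuft-like replicate 2 (0.013) or tuft-like replicate 2 (0.047), and none of these 4 was called in any alternative. With each library left out in turn, the log2 ratios reached 0.76 for Hnf4g, -1.10 for Alb, -0.91 for Fabp1 and -5.57 for Fabp2 (without tuft-like replicate 2, and -4.67 with the replicate block, against -1.80), and Cdx2 reached -1.94 without the 2 libraries with most reads on no gene. Over all genes, 687 calls became 1904 with DESeq2, 1236 with the likelihood ratio test, 1127 without a filter, 1045 with library size only and 325 without the 2 libraries named above, and ranged from 376 to 922 with each library left out. The share of lower calls was 45.0% and ranged from 37.1% (without tuft-like replicate 1) to 66.4% (without tuft-like replicate 3) with each library left out, and was 28.9% without the 2 libraries. Hepatocyte genes called went from 1 to 8 with DESeq2, 4 with the likelihood ratio test or without a filter, 3 with library size only, and 2 at an FDR of 0.10, with at least 1 CPM in 3 libraries or with the replicate block, and 1 to 3 with each library left out. Enterocyte genes called went from 1 to 4 with DESeq2. Lipoprotein genes called went from 2 to 0 without the 2 libraries and 0 to 3 with each library left out, and those of transcription factors ranged from 0 to 1 with each library left out. With the replicate number as a block, 737 genes were called and the count for the 9 genes stayed at 1 (Apoa4, edgeR FDR 0.00697). Deviations within a number did not go together, but 3 libraries per population cannot show whether libraries of 1 number shared mice. With mean transcript length in place of exon length, 37 rather than 36 of the 54 values lay above the olfactory receptor percentile, but Alb went from 2 to 5 libraries, Cdx2 from 3 to 1, Fabp2 from 2 to 1 and Hnf4a from 5 to 6. The causes of these changes were not tested.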
